A study of Drosophila melanogaster with 20 samples.

Results

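A set of 73 transcripts, of 15473 measured, was lower in pupal Drosophila melanogaster wings that expressed activated Thickveins (Tkv) than in control wings, while the larval difference was small and the normal change between the stages did not run upward past a limit. The members were chosen on measured values, log2 intensities quantile-normalized over 20 arrays. A member had a pupal difference (mean of Tkv minus mean of control) of -0.6 or lower, which is a 1.52-fold lower intensity, and was lower in Tkv in all 5 pairs of arrays with the same replicate number. Its larval difference lay within 0.35 of 0, and its stage change in control wings (pupal minus larval) lay below 0.6. The levels, differences and stage changes given below are therefore descriptions of a chosen set and carry no test of their own.

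Each array carried total RNA of 10 dissected wings, and the arrays formed 4 groups of 5. Larval controls and larval Tkv wings came from wandering animals of the 3rd instar, and pupal controls and pupal Tkv wings were taken 24 h after pupa formation, staged from white prepupae. Tkv wings carried an activated thickveins transgene under UAS control, and controls were of a matching strain that lacks the UAS transgene. All 4 groups were grown at 18 °C and moved for 10 h to 28 °C, a temperature that permits Gal4 to drive the transgene, before dissection. The Gal4 driver, and with it the part of the wing that expressed the transgene, is not stated in the labels, nor are the animals' sex or any kinship between samples.

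Tkv is a type I BMP receptor, and its main ligand in the wing is Decapentaplegic. The receptor phosphorylates the transcription factor Mad, and in the larval wing disc a gradient of this activity patterns growth and vein position, in large part by lowering the repressor Brinker. In the pupal wing the same pathway works along the forming veins, where it maintains vein fate, while the cells between veins adopt intervein fate. An activated receptor signals without its ligand.

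The array identifies transcripts by FlyBase transcript ID. The RefSeq gene table used here (Release 6 assembly) led from 44 of the 15473 IDs to a gene and from 17 of them to a single symbol, and none of these is a member. Members are therefore given by ID, without gene name, role or sequence. The preset gene and marker lists (15 in number) could not be set against the members, and neither the tissue label nor the tkv transcript was checked. A transcript lower in an RNA of whole wings cannot be assigned to fewer cells of a type or to less RNA per cell.

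Applied step by step, the rule shows where the set comes from. A pupal difference at or below -0.6 was found for 511 transcripts, and 295 of them were lower in all 5 pairs. A small larval difference left 162. Of these, 89 rose past 0.6 between the stages in control wings, so that their loss ran against the normal rise, and the other 73 are the members. The member nearest to the pupal limit, FBtr0085455, had a difference of -0.607, and FBtr0076183, the nearest transcript outside it that met the other conditions, had -0.599. At the stage limit the values were 0.58 inside and 0.62 outside, and at the larval limit 0.34 and 0.38.

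Most losses were modest. The pupal difference of the members ran from -1.94 to -0.61 with a median of -0.75, against a median of -0.0033 over all transcripts. It lay between -0.8 and -0.6 for 44 members, and 11 members were at least 2-fold lower. The larval difference of the members ran from -0.34 to 0.32 with a median of -0.11.

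**Figure D1:**
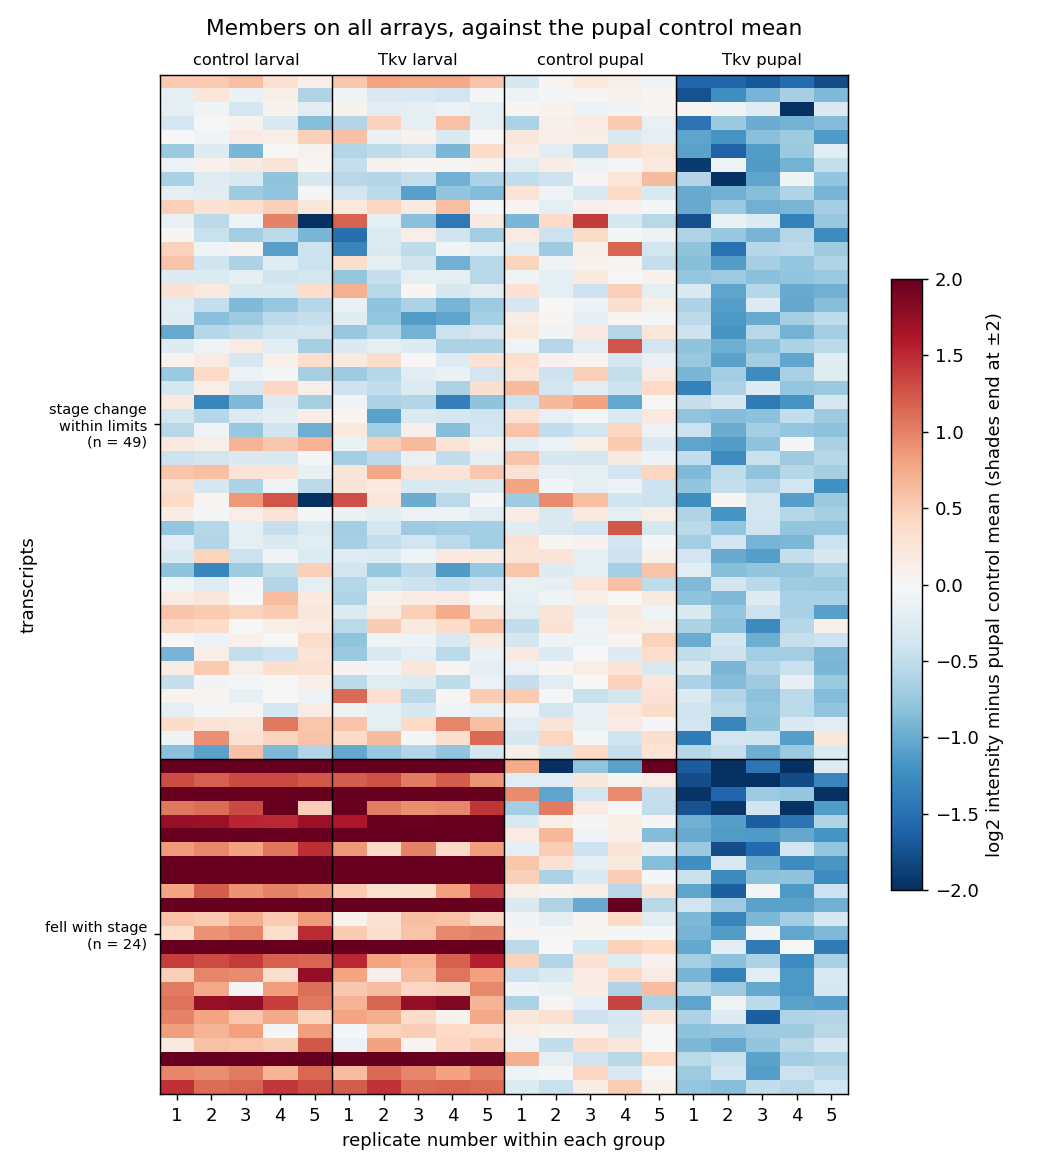
Each row is a member and each column an array, numbered 1 to 5 within its group. Colour is the log2 intensity minus the member's pupal control mean, with shades ending at ±2. The 49 members in the upper block change little between larval and pupal controls, the 24 in the lower block fall, and the pupal Tkv columns on the right are below the pupal control columns in both blocks.

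The members with large losses and little spread were bright in every group. FBtr0082782 read 11.64, 11.64, 12.08, 11.92 and 11.99 in the 5 pupal controls (log2 intensity, replicates 1 to 5) and 10.09, 9.72, 9.53, 10.06 and 10.54 in Tkv wings of that stage. All 5 Tkv values lie well below the lowest control value, and the fall is 3.65-fold (log2 difference -1.87 ± 0.15, n = 5 per group). Here and below, the SE of a difference comes from a fit that shares 1 spread over all 4 groups, larval ones included. In larval wings the same transcript stood at 13.13 ± 0.05 in controls and 12.98 ± 0.17 in Tkv wings (mean ± SD, n = 5). In controls it fell by 1.28 on the log2 scale between the stages, and in Tkv wings it fell by 2.99.

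FBtr0081781 had a small spread in all 4 groups. Its pupal control values were 11.40, 11.77, 11.92, 11.82 and 11.64, and its pupal Tkv values 10.13, 10.11, 10.01, 10.17 and 9.94. The groups are separated by more than the range of either, at 3.12-fold (log2 difference -1.64 ± 0.11, SE). Larval Tkv wings were at 12.39 ± 0.12 and larval controls at 12.13 ± 0.19, so the small larval difference of 0.26 pointed the other way. In controls this transcript fell by 0.42 on the log2 scale between the stages.

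FBtr0087445 also pointed upward in larval wings, by 0.31, close to the limit of the rule. Its pupal control values were 11.48, 11.91, 11.81, 11.93 and 11.80 and its pupal Tkv values 10.82, 10.68, 10.13, 10.32 and 11.19. The groups do not overlap, and the pupal difference was -1.16 ± 0.16 (SE), 2.23-fold. FBtr0075579, a smaller loss with a tight spread, read 11.16, 10.91, 11.22, 11.20 and 11.08 in pupal controls and 10.10, 10.37, 10.15, 10.20 and 10.43 in Tkv wings of that stage. Its difference was -0.86 ± 0.11 (SE), with larval means of 11.47 and 11.39. FBtr0075579 is outside the naming rule and is given because of the test of stages below.

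The other leading members varied more from array to array. FBtr0077863 has the lowest pupal difference of the set, -1.94 ± 0.74 (SE), but its pupal controls read 10.28, 7.53, 8.73, 8.46 and 12.68 and its pupal Tkv wings 7.87, 7.13, 8.08, 5.63 and 9.28. The pupal SDs were 2.02 in controls and 1.34 in Tkv wings, larger than the larval ones (0.76 and 0.17) that also enter the SE. The pupal groups overlap widely, and without replicate 5 of the pupal controls the difference was -1.15. This transcript fell by 4.63 between the stages in controls, from a larval level of 14.17 ± 0.76 (mean ± SD, n = 5), the lowest stage change of any member. The next lowest, -4.44, is that of FBtr0083178, which was at 11.01 ± 0.43 in larval controls (mean ± SD, n = 5). Its pupal controls read 7.30, 6.40, 6.17, 6.02 and 6.98 and its pupal Tkv wings 6.04, 6.13, 5.51, 5.89 and 5.95, all of them dim. The pupal groups overlap, and the pupal difference was -0.67 ± 0.24 (SE). FBtr0083641 went from 7.14 ± 0.90 to 5.70 ± 0.67 and FBtr0072463 from 8.33 ± 0.67 to 6.89 ± 0.67 (pupal control to pupal Tkv, mean ± SD, n = 5). In both transcripts the pupal groups overlap.

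**Figure D2:**
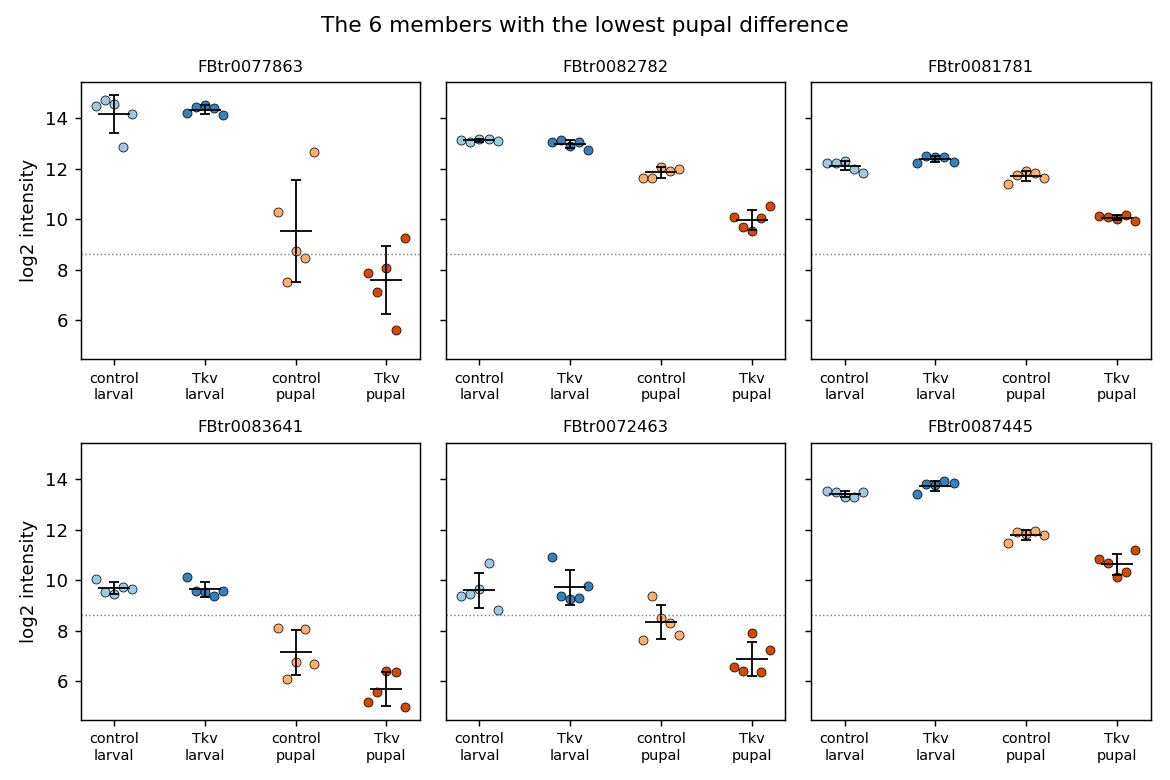
Log2 intensity of the 6 members with the lowest pupal difference, on 5 arrays per group (points), with the mean and SD (bars) and the boundary between dim and bright transcripts at 8.61 (dotted). FBtr0082782, FBtr0081781 and FBtr0087445 have pupal Tkv points wholly below the pupal controls, while the pupal points of the other 3 overlap.

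The members differ in how they behave in normal development. A stage change of -0.6 or lower in controls, the mirror of the rule's upper limit and chosen after the values were seen, was found for 24 members, and the other 49 lay within 0.6 of 0 on either side. In the 24 that fell, the median stage change was -1.28 in controls and -1.97 in Tkv wings. Their pupal difference had a median of -0.82, and 7 of the 24 were at least 2-fold lower. In the 49 near-flat members the median stage change was 0.20 in controls and -0.45 in Tkv wings. The pupal difference of these 49 had a median of -0.74, and 4 of them were at least 2-fold lower. These stage changes share the control arrays with the pupal difference. The rule asked for a pupal loss and a small larval difference, so every member's stage change must lie lower in Tkv wings. Nothing is read from that order.

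The pupal Tkv group had the lowest mean of the 4 groups for 70 of the 73 members, as for 24.6% of all transcripts, an order that the rule itself favours. The 3 exceptions, whose lowest mean was in larval Tkv wings, are FBtr0100021 and FBtr0083152, named after their values were seen, and FBtr0085455.

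Among the near-flat members, the stage change closest to 0 belonged to FBtr0081581 and FBtr0079808. FBtr0081581 had the same mean of 6.12 in larval and pupal controls, and 5.37 ± 0.39 in pupal Tkv wings (mean ± SD, n = 5). FBtr0079808 stood at 8.49 in controls of both stages, with an SD of 1.51 in larvae and 0.72 in pupae, and at 7.81 ± 0.52 in pupal Tkv wings. The ranges of the pupal groups overlap in both. A cleaner flat member is FBtr0079775, given here after its values were seen. It read 10.97, 11.02, 11.09, 11.16 and 11.11 in pupal controls and 9.33, 9.84, 10.15, 10.40 and 10.19 in Tkv wings of that stage, with a stage change of 0.11 in controls. Its highest Tkv value is below its lowest control value, and the loss is 2.13-fold (log2 -1.09 ± 0.17, SE).

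The members also span a wide range of levels. The normalized intensities of all transcripts have a dim and a bright mode, with the lowest density between them at 8.61. On that scale 24 members were bright on all 5 pupal control arrays, 37 were dim on all 5, and 12 had controls on both sides. Over all transcripts 51.7% were bright and 43.4% dim on all 5. The dim members had pupal control means between 5.27 and 8.03 and pupal Tkv means between 4.44 and 7.23. Of the 73 members, 37 were bright on all 5 larval control arrays, and 52.1% of all transcripts were.

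Only FBtr0088142, named after its values were seen, was bright on all 5 pupal control arrays and dim on all 5 pupal Tkv arrays, a pattern found in 0.0582% of all transcripts. Its pupal controls read 9.75, 10.25, 9.51, 9.70 and 8.72 and its pupal Tkv wings 8.57, 8.47, 8.45, 8.57 and 8.40, just under the boundary. The groups do not overlap, and the loss is 2.13-fold (log2 -1.09 ± 0.20, SE). Its larval control level was 13.82 ± 0.27 (mean ± SD, n = 5), and between the stages it fell by 4.24 on the log2 scale in normal development.

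At the bright end of the set, FBtr0080884 and FBtr0088803 had the highest pupal control means. FBtr0080884 is an example of a member that rests on a single array. Its pupal controls read 14.43, 14.46, 14.28, 14.34 and 14.44 and its pupal Tkv wings 14.42, 14.31, 14.14, 9.63 and 14.10, so 4 of the 5 Tkv values are within the control range or slightly under it. Its difference of -1.07 was -0.14 without replicate 4 of the pupal Tkv wings. FBtr0088803 went from 12.16 ± 0.25 to 11.50 ± 0.25 (mean ± SD, n = 5), 1.58-fold lower, with its highest Tkv value equal to its lowest control value at 2 decimals (11.78).

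At the dim end, FBtr0083253 and FBtr0078982 had the lowest pupal control means. FBtr0083253 read 4.98, 4.68, 4.27, 7.72 and 4.72 in pupal controls and 4.90, 4.55, 4.20, 4.21 and 4.32 in Tkv wings of that stage. Apart from control replicate 4 the groups cover nearly the same range, and without that array the difference of -0.84 was -0.23. FBtr0083253 is a bright larval transcript (9.35 ± 0.21 in larval controls, mean ± SD, n = 5), and its pupal levels are near the lowest intensities of the arrays. FBtr0078982 was dim in all groups, and its pupal level went from 5.36 ± 0.42 to 4.71 ± 0.20 (mean ± SD, n = 5). In all, the difference of 9 members moved by more than 1.5 times when 1 pupal array was left out, always towards 0, and in none did it turn. For 5 of these 9 the array was replicate 4 of the pupal controls.

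**Figure D3:**
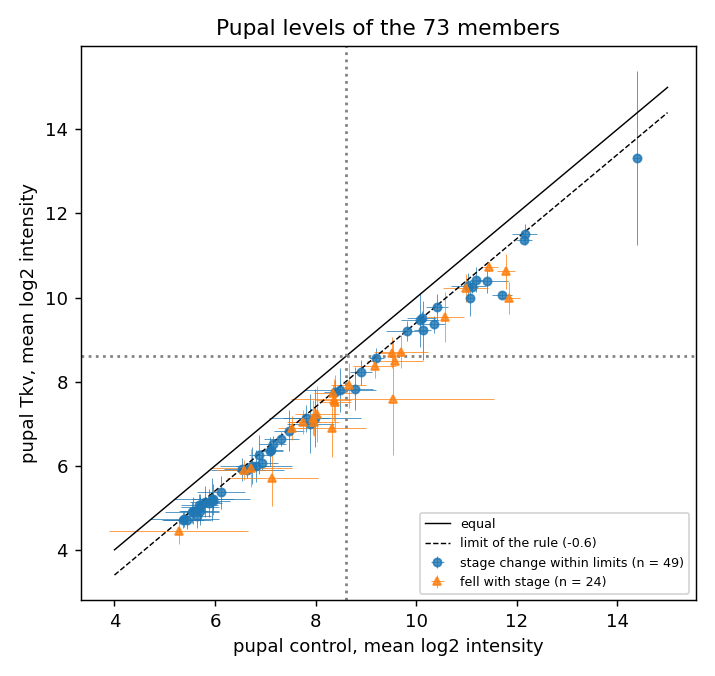
Mean log2 intensity of each member in pupal controls (horizontal) and pupal Tkv wings (vertical), with SD over 5 arrays as bars. The solid line marks equal levels, the dashed line the limit of -0.6, and the dotted lines the boundary of 8.61. All 73 members lie below the dashed line, most of them close to it, and both stage classes are found among dim and bright transcripts.

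Within the same-numbered pairs the losses were uneven. The median pupal difference over the members was -0.80, -0.71, -0.74, -0.74 and -0.64 in pairs 1 to 5, with no pair standing apart in this median. Pair 4 had the lowest 25th percentile, -1.30 (-1.11 to -0.95 in the other pairs), and the largest single loss, -4.71. It held the largest loss of 14 members, while pairs 2 and 3 held that of 18 each. For a single member the 5 pairs often differed by more than the mean loss. The smallest loss in any pair had a median of -0.24 over the members and the largest a median of -1.29. In 32 members every pair was at -0.3 or lower, and in 12 members at least 1 pair was above -0.1. The median within-group SD of the members was 0.35 in pupal controls and 0.33 in Tkv wings of that stage, against 0.26 and 0.27 over all transcripts.

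**Figure D4:**
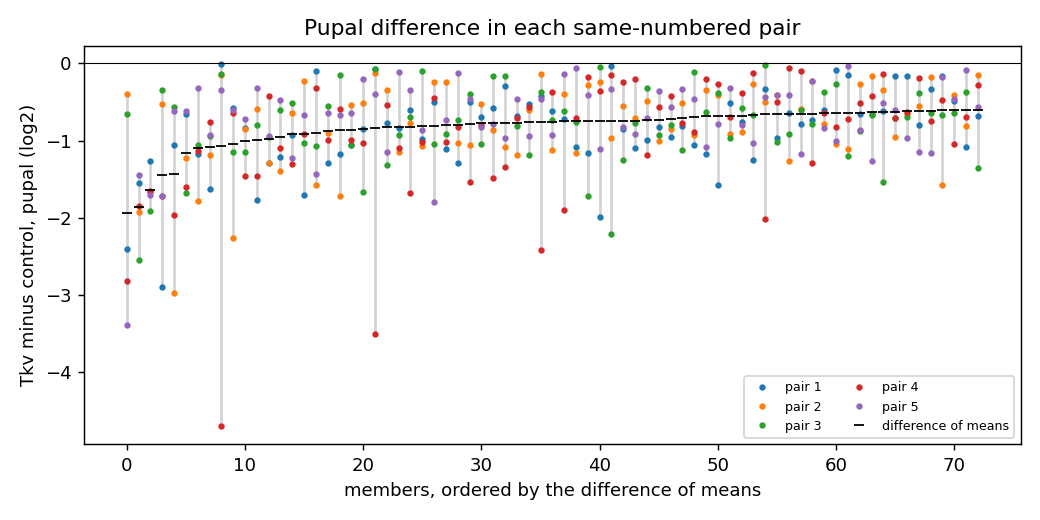
Pupal Tkv minus control (log2) in each of the 5 same-numbered pairs (coloured points), with the difference of means (black dashes) and the range over pairs (grey lines), for the 73 members in order of that difference. All points are below 0, as the rule requires, and the grey lines are often longer than the distance of the dash from 0.

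The pupal groups of 28 members did not overlap, which is the case with Tkv lower for 2.22% of all transcripts. The rule asked for a pupal loss in every pair, which favours this, so nothing is read from the excess. Of the 24 bright members 15 did not overlap, and of the 37 dim members 11. In the limma fit over all transcripts 36 of the 73 members were called lower in pupal Tkv wings at a Benjamini-Hochberg adjusted p under 0.05, where 1.54% of all transcripts were called lower. The rule used this contrast, so the count supports nothing. By level, the calls covered 20 of the 24 bright members and 12 of the 37 dim ones. The shares called or not overlapping among all bright and all dim transcripts were not taken. Nothing is therefore read from either split by level. When the pupal arrays alone entered the fit 16 members were called, and the share of all transcripts called in either direction went from 3.16% to 1.87%. Without replicates 1, 2, 3, 4 and 5 in turn the numbers of members were 25, 21, 17, 21 and 19. The shares of all transcripts were 2.42%, 2.44%, 1.71%, 2.44% and 1.98%.

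The difference between the stages is fixed in sign by the rule, which used both responses, and lay below 0 in all 73 members. The interaction (pupal minus larval response) is therefore given as a description. It was called for 4 members, FBtr0082782, FBtr0081781, FBtr0087445 and FBtr0075579, all bright, where 0.246% of all transcripts were called in this direction. These 4 differed between the stages by -1.72 ± 0.21, -1.90 ± 0.16, -1.47 ± 0.23 and -0.77 ± 0.16 (log2, SE). The other 69 did not pass. With the replicate number as a fixed block 7 members were called, and also 7 with it as a random block. The share of all transcripts called in either direction rose too, from 0.679% to 0.801% (fixed) and 0.911% (random).

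In larval wings limma called no member in either direction (1 had an unadjusted p under 0.05), where 1.4% of all transcripts were called. The rule limited the size of the larval difference, so nothing is read from this count. The larval difference was below 0 in 53 of the 73 members (72.6%) and in 53 of the 89 losses that run against the normal rise (59.6%). Of all transcripts within the larval limit 53.9% were below 0. The limit on the stage change uses the larval controls as well as the pupal ones, so it bears on this sign, which is given as a description.

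For the normal stage change limma called 27 members lower and 4 higher in pupal than in larval controls, where 20.8% and 19.7% of all transcripts were called. The rule removed every control stage change of 0.6 or more, so nothing is read from this imbalance. In Tkv wings 46 members were called lower and 0 higher (47 in all had an unadjusted p under 0.05 in limma), where the shares of all transcripts were 20.5% and 18.9%. The stage change of Tkv wings is the sum of differences that the rule limits, so nothing is read from this shift.

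Since all 20 arrays chose the members, the same rule was also applied to 4 replicate numbers at a time and read in the pair left out. It chose 86 to 118 transcripts, of which 50 to 60 were members. Their median difference was -0.76 to -0.73 in the 4 numbers used and -0.50 to -0.20 in the pair left out, where the median of all transcripts lay between -0.02 and 0.04. In the left-out pair 57.6 to 72.4% of the chosen transcripts were lower in Tkv, against 46.0 to 52.1% of all transcripts. Of the chosen transcripts 26.1 to 41.9% were at or below -0.6 there, against 8.31 to 14.7% of all transcripts. The share past -0.6 also depends on the spread, which was larger in the members (median pupal control SD 0.35 against 0.26 over all transcripts). No share at like spread was taken, so nothing is read from this excess past -0.6.

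The same reading was made for bright and dim transcripts apart. Of the chosen transcripts that were bright on the 4 pupal control arrays used, 62.2 to 92.3% were lower in the pair left out, with medians of -0.80 to -0.38, against 46.1 to 53.3% of all bright transcripts. Of those that were dim, 47.2 to 66.0% were lower, with medians of -0.32 to 0.10, against 46.0 to 52.8% of all dim transcripts. The difference between bright and dim transcripts was not tested. Of the 73 members, 24 were chosen in all 5 of these selections and 21 in 4 of them, 19 in 3, 7 in 2 and 2 in 1. FBtr0082782 and FBtr0081781 were among the 24, together with FBtr0079775, FBtr0088142 and FBtr0075579, and also FBtr0077863 and FBtr0083641. By the rule every member is lower in all 5 pairs, so it meets the pair condition in each of these selections. Each selection also reused arrays that had chosen the members, so nothing is read from this tally.

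**Figure D5:**
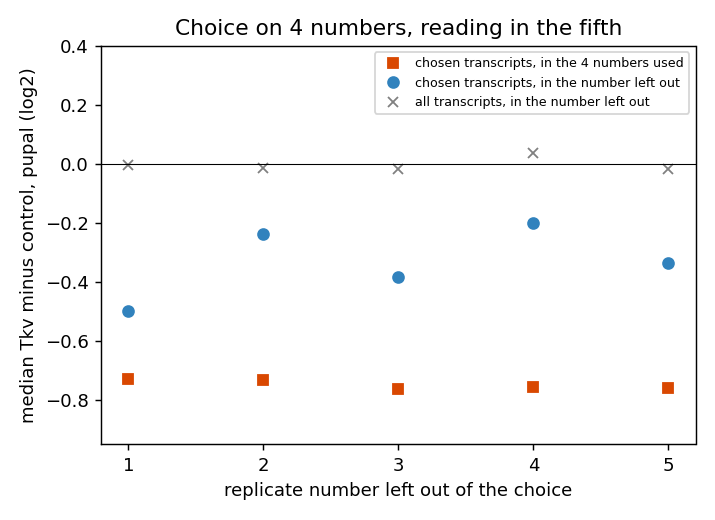
Median pupal difference (log2) of the transcripts chosen on 4 replicate numbers, in the numbers used (squares) and in the number left out (circles), and of all 15473 transcripts in the number left out (crosses). The circles lie between the squares and 0 at each number, from -0.50 for replicate 1 to -0.20 for replicate 4.

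Some members have neighbouring IDs, and the files do not say whether these are forms of 1 gene or share probes. FBtr0088141 and FBtr0088142 differed by a median of 0.14 in log2 intensity over the 20 arrays. Their pupal differences were -0.99 and -1.09 and their stage changes -4.14 and -4.24. Whether they are 2 separate losses or the same one read by both probe sets cannot be told. FBtr0085089, FBtr0085090, FBtr0085091 and FBtr0085094 had pupal differences of -0.75, -0.79, -0.81 and -0.78. Their pupal control levels were 5.96, 8.36, 7.95 and 12.14. FBtr0085090 and FBtr0085091 differed by a median of 0.44 over the 20 arrays, so these too may be the same loss read by both probe sets. FBtr0085092 and FBtr0085093, which lie within this run of IDs, showed no loss, with pupal differences of 0.11 and 0.048. FBtr0085094 read 12.06, 11.95, 12.35, 12.16 and 12.21 in pupal controls and 11.36, 11.42, 11.30, 11.35 and 11.39 in Tkv wings of that stage, a 1.71-fold loss with no overlap. All of these were chosen for their IDs after the values were seen.

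Most transcripts with IDs close to a member's did not share its loss. Within 3 numbers of a member's ID lay 316 transcripts outside the set, with a median pupal difference of -0.02. Of these, 169 were below 0 and 17 were at or below -0.6 (5.38%, against 3.3% of all transcripts). The examples that follow were picked for their losses. FBtr0087444, next to FBtr0087445, had a pupal difference of means of -1.05 and was lower in all 5 pupal pairs. It also fell with stage, but its larval difference of 0.46 was past the limit. FBtr0078413, next to FBtr0078412, had pupal and larval differences of -3.57 and -2.41, while FBtr0078412 had -0.72 and -0.30. FBtr0078412 itself went from 11.46 ± 0.16 to 10.74 ± 0.10 in pupal wings (mean ± SD, n = 5) without overlap.

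Beside the 89 losses that ran against a normal rise, the members started from higher larval levels. The larval control mean had a median of 9.0 over the members and 6.05 over the 89, of which 67 were dim on all 5 larval control arrays, against 29 of the 73 members. The median pupal difference was -0.85 in the 89 and -0.75 in the members, and 28 of the 89 were at least 2-fold lower. The stage condition separates the 2 sets and is tied to the larval level, so no test was made. Of the members 51 were read by 5 probe pairs and 22 by 4 (69.9% with 5, against 65.3% of all transcripts).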

How the data were processed

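Total RNA of dissected wings was measured on 20 NimbleGen arrays after Cy3 labelling, in 4 groups of 5 taken from the sample titles. The authors deposited 1 table per array with a linear intensity per transcript from 3 to 5 probe pairs, and the submitters' processing notes name RMA. No version or setting of it is stated in the labels or headers. The deposited series table holds log2 values that equal the log2 of these intensities to within 5e-09. Intensities run from 12.2 to 62183. For arrays no depth applies, and their number limits the precision.

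The log2 intensities were quantile-normalized over the 20 arrays, since deposited medians differed by up to 0.40. No transcript was filtered. limma 3.58.1 in R 4.3.3 fitted 4 group means over 15473 transcripts, with eBayes, two-sided tests and Benjamini-Hochberg adjustment at 0.05, in 5 contrasts. Standard errors of differences come from this fit. The members and lists were chosen with earlier results of these data known. Members given by ID are the 6 with the lowest pupal difference, the 2 with the lowest stage change and the 2 with the stage change nearest 0, the 2 brightest and 2 dimmest in pupal controls, the 2 with the lowest interaction p and the one nearest the limit. All other IDs were chosen after their values were seen.

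Replicate numbers pair the arrays: in the image names of the file headers, arrays of the same replicate number share 1 image number. Each of the 5 image numbers holds 1 array of every group and was taken here to mark a slide. Deviations of same-numbered arrays from their group means correlated between -0.19 and 0.29 (median 0.07). Slide and replicate number cannot be told apart. Nothing says that samples came from separate cultures beyond their being isolated independently, so the spread is that between these samples. Alternatives were the number as a block, no further normalization, median centring, leaving out the dimmest 25% of transcripts, trended and robust eBayes, pupal arrays alone, other limits of the rule, and leaving out each array or number. The fit and the rule were tested on simulated data. Python 3.11.15 with matplotlib 3.10.9 made the figures.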

Additional observations from a re-analysis of the deposited data

Results flagged for a closer look

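Of 60 groups of 5 arrays examined (14 members given by ID and the members' median, in 4 groups each), 4 held a value that stood apart from the rest. Of groups not chosen on their values about 1 in 20 would by chance. These members were chosen on their values, so that rate does not apply to them. These were 11.48 for FBtr0087445 in replicate 1 of the pupal controls, 9.63 for FBtr0080884 in replicate 4 of the pupal Tkv wings, 11.58 for FBtr0088803 in replicate 2 of the larval controls and 7.72 for FBtr0083253 in replicate 4 of the pupal controls. The response differed between the stages by the limma interaction test for 3 of the 14, by -1.72 for FBtr0082782, -1.90 for FBtr0081781 and -1.47 for FBtr0087445 (log2, pupal minus larval response). The rule favours such differences, since it asked for a pupal loss and a small larval difference. FBtr0081781 and FBtr0082782 are also given by ID for having the lowest interaction p. Of all transcripts 0.246% were called in this direction. Nothing is therefore read from this count.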

How the results depend on the processing

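The set depends on the limits of the rule. It held 29 transcripts with a pupal limit of -0.8 and 128 without the condition on pairs. With numbers left out one at a time it held 86 to 118, and the left-out pair was lower in 57.6 to 72.4% of them (median 70.9%). A condition chosen after seeing the data, bright on all 5 pupal control arrays, left 24. Without further normalization the rule gave 82 transcripts, 61 of them members, and with median centring 63, 56 of them members. Of the 73 members limma called 36 lower in pupal wings in the design used, 16 with pupal arrays alone and 17 to 42 with a number or array left out. The shares of all transcripts called in either direction were 3.16%, 1.87% and 1.71 to 3.74%. The interaction was called for 4 members, and for 7 with the replicate number as a fixed or as a random block, and for 3 to 6 with a number or array left out. Over all transcripts the shares called were 0.679%, 0.801% (fixed), 0.911% (random) and 0.31 to 0.692%. With the replicate block the pupal count was 46 (fixed) or 45 (random), with 3.88% or 4.14% of all transcripts called. The block moved no other count of calls among the members by more than 1.5 times.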
